A study of Rattus norvegicus with 16 samples.

Results

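Claudins are the membrane proteins that form the strands of tight junctions, and 6 of them were followed here in the mammary glands of young rats: Cldn1, Cldn3, Cldn4, Cldn5, Cldn7 and Cldn8. They were taken by name from the 14324 genes that have a probe set of exactly 1 gene symbol on the array. Each had a single probe set (10751896 for Cldn1, 10763184 for Cldn3, 10757715 for Cldn4, 10756054 for Cldn5, 10735091 for Cldn7 and 10752943 for Cldn8). All 6 passed the filter on low values that left 11796 genes for testing.

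The animals were female Wistar Han rats whose mothers, in groups of 15 dams on a purified diet without phytoestrogens, were dosed by gavage every day from the first day of gestation until the young were weaned on postnatal day (PND) 21. The dams received genistein, a soy isoflavone that binds estrogen receptors, or vinclozolin, a fungicide with antiandrogenic action, or both together as a mixture, with 1 mg/kg/day given as the dose. Control dams are labelled untreated, and whether they were gavaged with vehicle is not said. Daughters, 1 from each litter, were killed at PND35 or PND50 and are described as pubertal or cycling. Which litters gave the daughters of each age is not given here, so litters may be shared between the ages. RNA was extracted gland by gland, and pools of 5 such RNAs were hybridised to 16 arrays, 2 pools for each of the 8 groups of treatment and age. The p-values therefore rest on the spread between pools within groups, shared over all 8 groups, and not on that between animals. The array medians lay between 7.05 and 7.145 on the log2 scale, and the pools of a group correlated at 0.989 to 0.997 over all probe sets. The vinclozolin PND35 pools were the least alike, with an SD of their difference over all genes of 0.303 against 0.162 to 0.206 in the other groups. The epithelial markers Krt8 (9.65 to 10.1), Epcam (9.38 to 10.1) and Cdh1 (9.89 to 10.6) and the endothelial marker Cdh5 (9.88 to 10.3) were bright in every pool of this whole-gland RNA. The 2 vinclozolin PND35 pools alone also carried hair follicle and epidermal transcripts, so claudin results that could rest on them are given with and without them, where a test remains. Without both, vinclozolin has no PND35 group, so the age average is then over control, genistein and mixture.

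In a tight junction, claudins of neighbouring cells meet in paired strands that close the space between them and set which ions may pass. Occludin and the tricellular proteins sit in the same strands, the junctional adhesion molecules lie beside them, and the zonula occludens proteins tie them to actin. Mammary luminal cells have such junctions at their apical edge, and the junctions become tight around the onset of lactation. Cldn3, Cldn4, Cldn7 and Cldn8 are typical of glandular and other simple epithelia, Cldn4 and Cldn8 being barrier-forming members that have been linked to chloride passage in the kidney. Cldn1 is the main sealing claudin of the epidermis, where its loss opens the water barrier. Cldn5 is the claudin of endothelial cells.

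Promoters are shown for 4 claudins, Cldn3, Cldn7 and Cldn8, which rose with age on average, and Cldn1, which did not. Cldn4 also rose, but no window was at hand for it. The sequences are the 250 bases before each gene's start in RefSeq's rat assembly GRCr8, 5′ to 3′ on the gene's strand. Capitals mark matches to the E-box CAGGTG, which is bound by the Snail and Zeb repressors of epithelial genes, and to the GC box GGGCGG, bound by Sp factors, each on either strand (CACCTG and CCGCCC on the other). The TATA box TATAAA and the grainyhead motif AACNGGTT were searched in the same way, and no window of these genes held one. No matches overlapped in these windows. RefSeq windows were at hand for 5 of the 6 claudins.
Cldn7, chr10:55188420-55188669, plus strand: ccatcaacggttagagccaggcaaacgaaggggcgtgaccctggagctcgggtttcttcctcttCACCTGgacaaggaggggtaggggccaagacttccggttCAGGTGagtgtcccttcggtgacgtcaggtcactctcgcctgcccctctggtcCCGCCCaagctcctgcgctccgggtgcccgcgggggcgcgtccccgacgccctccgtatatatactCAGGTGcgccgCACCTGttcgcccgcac
Cldn3, chr12:27346548-27346797, minus strand: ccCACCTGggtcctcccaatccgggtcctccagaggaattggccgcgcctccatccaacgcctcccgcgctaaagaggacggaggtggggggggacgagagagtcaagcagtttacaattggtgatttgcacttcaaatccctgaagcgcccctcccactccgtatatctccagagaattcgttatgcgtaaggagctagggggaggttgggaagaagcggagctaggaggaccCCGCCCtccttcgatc
Cldn8, chr11:41364331-41364580, minus strand: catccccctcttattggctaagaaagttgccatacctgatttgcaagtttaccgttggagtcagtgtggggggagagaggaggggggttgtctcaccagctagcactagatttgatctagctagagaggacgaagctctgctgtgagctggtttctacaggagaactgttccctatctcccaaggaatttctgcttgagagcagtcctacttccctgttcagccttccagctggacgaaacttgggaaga
Cldn1, chr11:87926126-87926375, plus strand: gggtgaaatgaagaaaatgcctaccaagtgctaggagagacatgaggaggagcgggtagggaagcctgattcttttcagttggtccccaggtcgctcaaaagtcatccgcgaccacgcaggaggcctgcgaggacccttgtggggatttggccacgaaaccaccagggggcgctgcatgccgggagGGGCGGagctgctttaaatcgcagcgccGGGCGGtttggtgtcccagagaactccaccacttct
The Cldn7 window held 4 E-boxes, which began 186, 147, 28 and 17 bases before the start, and 1 GC box. An E-box was present in 15.9% of all 33469 windows of this length, and 4 or more in 0.0299% of them. The Cldn3 window held 1 E-box, at its far end 248 bases before the start, and 1 GC box 16 bases before it. The Cldn1 window held 2 GC boxes, 64 and 36 bases before the start, and no E-box, and the Cldn5 window held 1 GC box. None of the 4 motifs was found in the Cldn8 window. A GC box was present in 30.5% of all windows, a TATA box in 12.9% and the grainyhead motif in 1.76%. The Cldn7 window had a GC content of 65.6%, the Cldn1 and Cldn3 windows of 59.2% and the Cldn8 window of 50.4%, with a median of 51.2% over all windows. Cldn3 and Cldn4 are neighbours on chromosome 12 with 0 protein-coding genes between them, and the same holds on chromosome 11 for Cldn8 and Cldn17 and for Cldn1 and Cldn16. These matches are letters in a window, and no binding was measured.

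The first comparison, PND50 against PND35, asked how the claudins changed between these ages. Averaged over the 4 treatments, Cldn3, Cldn4, Cldn7 and Cldn8 were higher at PND50, by 1.22-fold, 1.18-fold, 1.28-fold and 1.16-fold. Cldn1 was 1.62-fold lower, a difference that rested on the vinclozolin PND35 pools, and Cldn5 did not pass the test. Thus 4 of the 6 claudins were called higher and 1 lower, where 19.4% of all genes tested were called higher and 25.2% lower. The median change of the 6 was 0.23 on the log2 scale, against -0.01 over all genes. In RNA of whole glands, fewer cells of a type and less RNA per cell cannot be told apart.

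**Figure D1:**
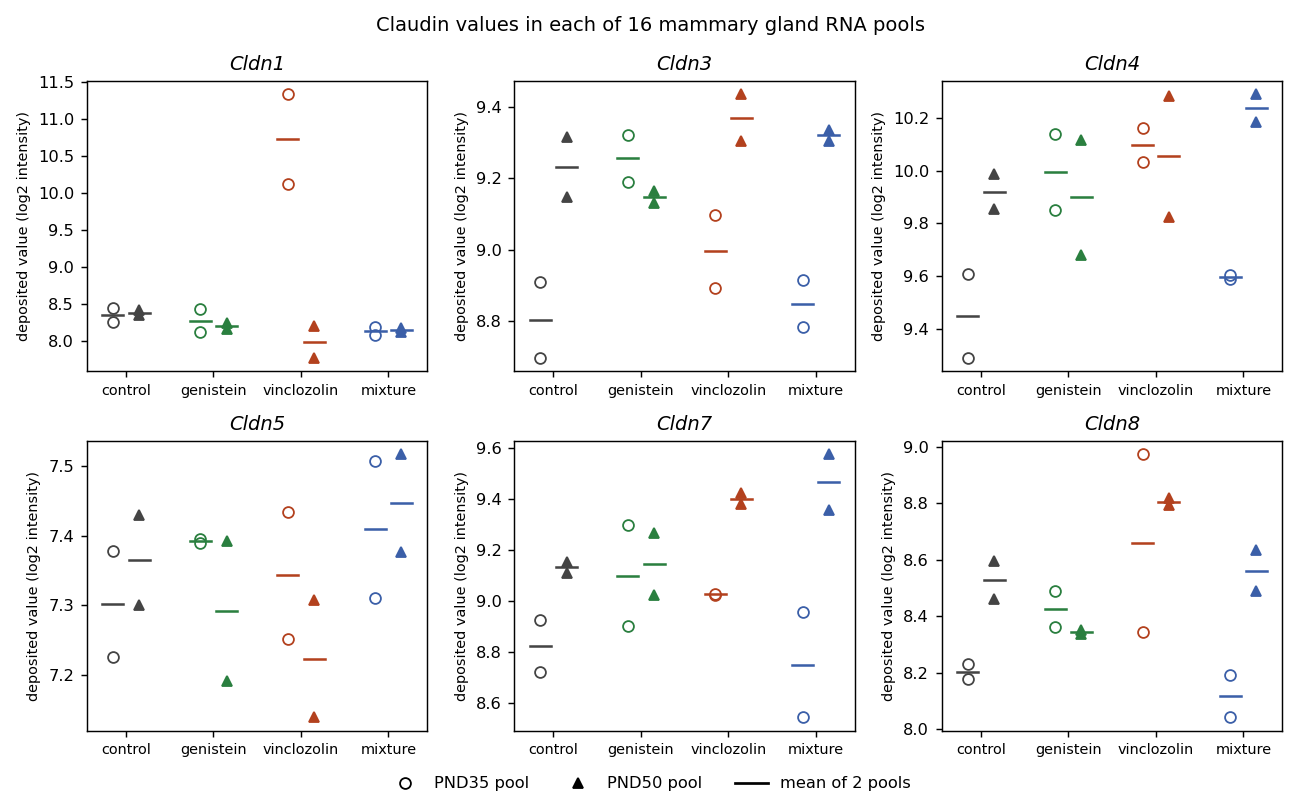
Deposited values (log2 intensity) of the 6 claudins in each of the 16 RNA pools, by treatment; open circles are PND35 pools, filled triangles PND50 pools, and bars the mean of 2 pools. Each panel has its own axis, which does not start at 0; Cldn1 reached 10.12 and 11.33 in the vinclozolin PND35 pools and lay at 8.45 or lower in the other 14, while the mean of Cldn3 was lowest in the control PND35 group and next in the mixture PND35 group.

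Of the 4 rises in the age average, that of Cldn3 had the smallest adjusted p. Its control pools read 8.91 and 8.70 at PND35 and 9.15 and 9.31 at PND50. Its vinclozolin pools read 8.89 and 9.10 at PND35 and 9.30 and 9.44 at PND50. Its mixture pools read 8.91 and 8.78 at PND35 and 9.34 and 9.31 at PND50. In each of these 3 treatments both PND50 pools lay above both PND35 pools. The genistein pools ran the other way, with 9.32 and 9.19 at PND35 above 9.16 and 9.13 at PND50. Over the 4 treatments the change was 0.29 on the log2 scale (SE 0.05, adjusted p = 0.00101, limma with Benjamini-Hochberg adjustment over all genes).

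Cldn7 read 8.93 and 8.72 in the control PND35 pools and 9.16 and 9.11 in those of PND50. The genistein pools read 9.30 and 8.90, then 9.27 and 9.03, and overlapped. With vinclozolin both PND35 pools read 9.03, against 9.38 and 9.42 at PND50. The mixture pools rose from 8.55 and 8.96 to 9.36 and 9.58, the widest gap between ages for this gene. The pools were thus apart and higher at PND50 in 3 treatments and overlapped in 1. The average change was 0.36 (SE 0.08, limma adjusted p = 0.00313).

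Cldn4 read 9.29 and 9.61 in the control PND35 pools and 9.99 and 9.85 at PND50. In the mixture it read 9.59 and 9.60, then 10.29 and 10.19, and in both treatments the ages did not overlap. With genistein it read 10.14 and 9.85, then 10.12 and 9.68, and with vinclozolin 10.03 and 10.16, then 10.28 and 9.82. Those 2 treatments already stood near the PND50 level at PND35, and their ages overlapped. The average change was 0.24 (SE 0.09, limma adjusted p = 0.0383).

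Cldn8 read 8.23 and 8.18 in the control PND35 pools and 8.59 and 8.46 at PND50, and in the mixture 8.04 and 8.19, then 8.63 and 8.49. Both of these treatments were higher at PND50 without overlap. The genistein pools read 8.49 and 8.36, then 8.35 and 8.34, apart and lower at PND50. The vinclozolin PND35 pools read 8.34 and 8.97 and straddled the PND50 pools at 8.79 and 8.82. The average change was 0.21 (SE 0.08, limma adjusted p = 0.0437).

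Cldn5 stayed within a narrow range, from 7.14 in a vinclozolin PND50 pool to 7.52 in a mixture PND50 pool. Its ages overlapped in every treatment, and its average change was -0.03 (SE 0.05, 95% interval -0.15 to 0.09, limma adjusted p = 0.666). Cldn1 lay between 7.77 and 8.45 in 14 pools and at 10.12 and 11.33 in the vinclozolin PND35 pools. Its average change was -0.70 (SE 0.14, limma adjusted p = 0.00259). Without both of those pools, as an average over control, genistein and mixture, it was -0.01 (adjusted p = 0.904). The age difference of Cldn1 was therefore that of 1 treatment.

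The calls for Cldn3 and Cldn7 in the age average held when any single pool was left out, and those for Cldn4 and Cldn8 did not. The Cldn4 change was 0.19 to 0.26, with an adjusted p of 0.0551 to 0.0903, without pool 1 of control, vinclozolin, genistein or mixture at PND50, pool 2 of mixture at PND50, pool 1 of control, vinclozolin or mixture at PND35, or pool 2 of genistein or mixture at PND35. The Cldn8 change was 0.19 to 0.23, with an adjusted p of 0.0511 to 0.0905, without any single pool other than those of vinclozolin at PND35 and pool 1 of genistein at PND35. Without both vinclozolin PND35 pools the average was over control, genistein and mixture. In it all 4 rises were called, at limma adjusted p = 0.00298 for Cldn3, 0.0192 for Cldn4, 0.00881 for Cldn7 and 0.00305 for Cldn8.

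Among treatments, the age changes of Cldn3, Cldn4, Cldn7 and Cldn8 had their highest values in the mixture. There 4 of the 6 claudins were called higher, where 14.4% of all genes were called higher and 18.3% lower. Cldn7 rose by 0.72 (1.64-fold, SE 0.15, limma adjusted p = 0.00549), Cldn4 by 0.64 (1.56-fold, SE 0.17, adjusted p = 0.0163), Cldn3 by 0.47 (1.39-fold, SE 0.10, adjusted p = 0.00533) and Cldn8 by 0.44 (1.36-fold, SE 0.15, adjusted p = 0.0438). The Cldn1 difference was 0.01 and that of Cldn5 0.04. These calls rested on 4 pools and an error shared by all groups. Without mixture PND35 pool 2 the Cldn3 change was 0.41 (adjusted p = 0.0512), and without mixture PND50 pool 2 the Cldn7 change was 0.61 (adjusted p = 0.0548). Cldn4 lost its call without any of the 4 mixture pools (0.59 to 0.69, adjusted p = 0.0601 to 0.0774), and Cldn8 without any single pool other than those of vinclozolin at PND35 (0.37 to 0.52, adjusted p = 0.0506 to 0.182).

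In the other treatments the same genes gave these values. In controls all 6 differences were above 0 and none was called, where 0.865% of all genes were called. Cldn4 differed by 0.47 (SE 0.17, limma adjusted p = 0.191), Cldn3 by 0.43 (SE 0.10, adjusted p = 0.0696), Cldn8 by 0.32 and Cldn7 by 0.31. The control Cldn3 difference did pass, at adjusted p = 0.0499, when pool 1, pool 2 or both pools of vinclozolin at PND35 were left out. With genistein, 5 of the 6 differences were below 0, from -0.11 for Cldn3 to 0.05 for Cldn7, and none was called, where 2.77% of all genes were. With vinclozolin, Cldn3 differed by 0.38 (SE 0.10, adjusted p = 0.0696), Cldn7 by 0.37 (SE 0.15, adjusted p = 0.199), Cldn8 by 0.15 and Cldn4 by -0.04, none of them called.

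The difference between age changes was tested as an interaction. Against controls, the age change with genistein was lower for all 6 claudins, by 0.54 for Cldn3 (SE 0.14, unadjusted p = 0.00254) and 0.57 for Cldn4 (SE 0.24, unadjusted p = 0.0387), neither of which passed after adjustment (limma adjusted p = 0.507 and 0.627). No gene on the array was called in this interaction (0%, with 906 genes at an unadjusted p under 0.05). The age change in the mixture did not differ from that of controls for any claudin after adjustment, with Cldn7 at 0.41 (95% interval -0.06 to 0.88, adjusted p = 0.471). Here too 0% of genes were called, and 1435 had an unadjusted p under 0.05. The larger mixture values are thus not shown to differ from the control ones.

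**Figure D2:**
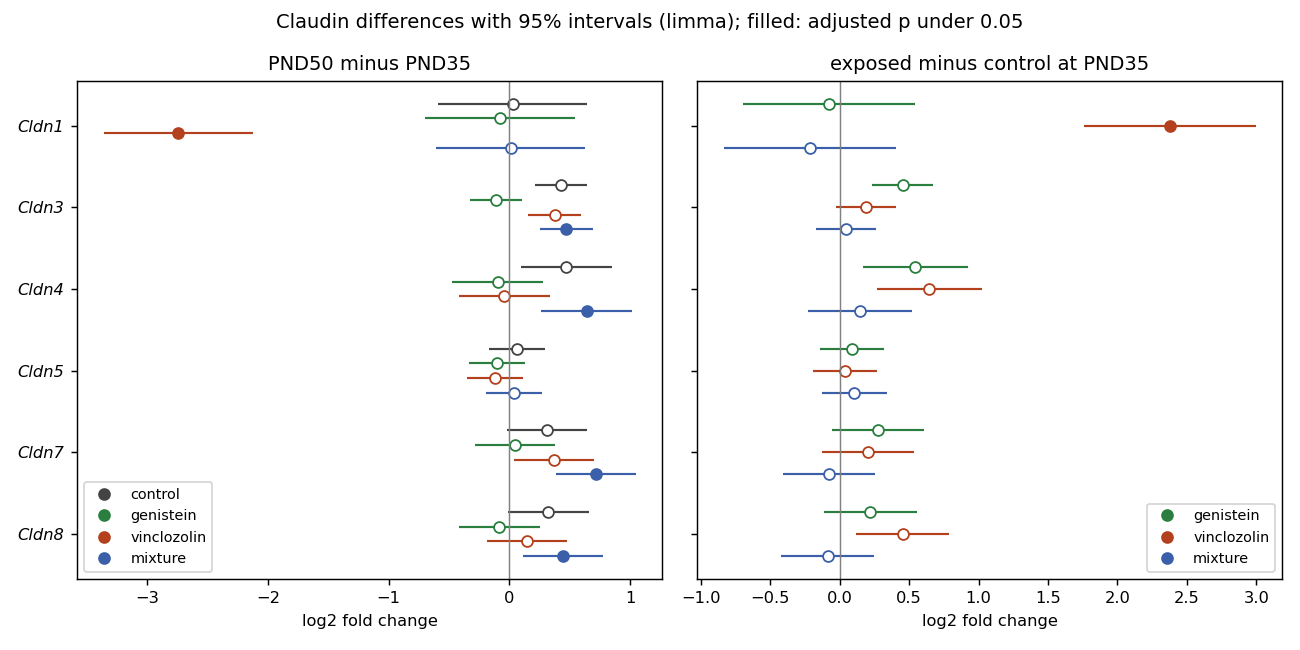
Left, PND50 minus PND35 in each treatment; right, exposed minus control at PND35; the x axes are log2 fold change, bars are 95% intervals from the limma fit, and filled points have an adjusted p under 0.05. On the left the filled points are Cldn3, Cldn4, Cldn7 and Cldn8 in the mixture and Cldn1 with vinclozolin (-2.74), and on the right only Cldn1 with vinclozolin (2.38) is filled.

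Markers of several cell types also moved with age. Of 24 luminal epithelium markers, 22 were tested, of which 14 rose and 1 fell, with a median of 0.26, where 19.4% of all genes rose and 25.2% fell. Among them Elf5, a transcription factor of alveolar progenitors, rose by 0.61, the mucin Muc1 by 0.94 and the luminal regulator Gata3 by 0.44. Single changes over the list ran from -0.20 to 0.94. The general epithelial marker Epcam gave 0.12 (limma adjusted p = 0.0795) without both vinclozolin PND35 pools. Centred over all pools, the luminal mean ran from -0.46 to 0.19 at PND35 and from 0.04 to 0.24 at PND50. The centred mean of 14 skeletal muscle markers, of which 13 fell in the age average, ran from -0.09 to 2.29 at PND35 and from -2.10 to 1.30 at PND50. By treatment, all 14 muscle markers fell in the mixture (median -3.08), while with vinclozolin their median was 0.57 and none was called. In a fit with the muscle mean as a covariate no claudin was called in the age average, at changes of 0.20 for Cldn3, 0.32 for Cldn4, 0.33 for Cldn7 and 0.32 for Cldn8. In the mixture the same fit gave 0.25, 0.83, 0.64 and 0.70. The muscle mean itself fell with age, so the lack of calls in this fit is not read as a result about the claudins. Among the other marker lists, 7 of 8 lymphocyte markers rose with age, and their centred mean ran from -0.31 to -0.11 at PND35 and from 0.10 to 0.40 at PND50. Of 10 basal markers 6 rose and 1 fell, of 13 white adipocyte markers 5 fell, and of 11 fibroblast markers 1 rose and 5 fell. The part of these cell types in the claudin changes was not tested beyond the covariate fits for the muscle and luminal means.

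Each claudin was therefore also read relative to the mean of its cell type's markers on the same array, and the age labels were permuted within treatments (exact permutation test, 1296 arrangements, smallest possible p = 0.00154, two-sided, p not adjusted over the 6 values). The luminal mean was 0.29 higher at PND50. Relative to it, Cldn3 changed by 0.0018 (p = 0.966, exact permutation), Cldn4 by -0.05 (p = 0.667), Cldn7 by 0.07 (p = 0.427) and Cldn8 by -0.08 (p = 0.233). None of these 4 relative changes passed, which does not show that the rises equalled that of the luminal markers. For the age changes themselves the exact permutation test gave p = 0.0108 for Cldn3 and 0.00772 for Cldn7. The same exact permutation test gave p = 0.0849 for Cldn4 and 0.0540 for Cldn8, which did not pass 0.05. It did not find the rises of Cldn4 and Cldn8 themselves, so it cannot show whether they followed the markers. Cldn1 changed by -0.99 relative to the luminal mean (p = 0.00617, exact permutation), and by -0.33 without the vinclozolin pools. Its own age change did not pass in this test (p = 0.142, exact permutation). Cldn5, set against 12 endothelial markers whose mean changed by 0.01, gave -0.04 (p = 0.505, exact permutation).

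The size of the relative change depended on which luminal markers were used. Against Krt8, Krt18 and Epcam alone, which are structural markers of all simple epithelial cells, Cldn7 changed by 0.31, Cldn3 by 0.24, Cldn4 by 0.19, Cldn8 by 0.15 and Cldn1 by -0.75. Against the 22 markers the same 5 values were 0.07, 0.0018, -0.05, -0.08 and -0.99. In a fit with the luminal mean as a covariate, no claudin was called in the age average. The luminal mean itself rose with age, so this lack of calls is not read as a result about the claudins. With the covariate the changes were 0.03 for Cldn3, -0.04 for Cldn8, 0.15 for Cldn7 and 0.26 for Cldn4 (0.24 without the covariate), and -0.97 for Cldn1. In the mixture with the same covariate, Cldn4 gave 0.67, Cldn7 0.37, Cldn3 0.04 and Cldn8 0.03.

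Across the 16 pools, Cldn3 followed the luminal mean most closely (Pearson r = 0.955, Spearman rho = 0.924), also within PND35 (r = 0.922) and within PND50 (r = 0.977). Cldn7 followed at r = 0.833 (0.749 within PND35 and 0.683 within PND50) and Cldn8 at r = 0.762 (0.750 and 0.736). Cldn4 gave r = 0.724 over all pools and 0.785 within PND35, and 0.280 within PND50. Cldn1 gave r = -0.02 with the luminal mean, and Cldn5 r = 0.416 with the endothelial mean. These are descriptions of 16 pools that share the age difference and the treatments, and no p is attached to them. Leaving out the 2 pools farthest from the median changed them to 0.916 for Cldn3, 0.864 for Cldn7, 0.742 for Cldn8 and 0.693 for Cldn4.

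**Figure D3:**
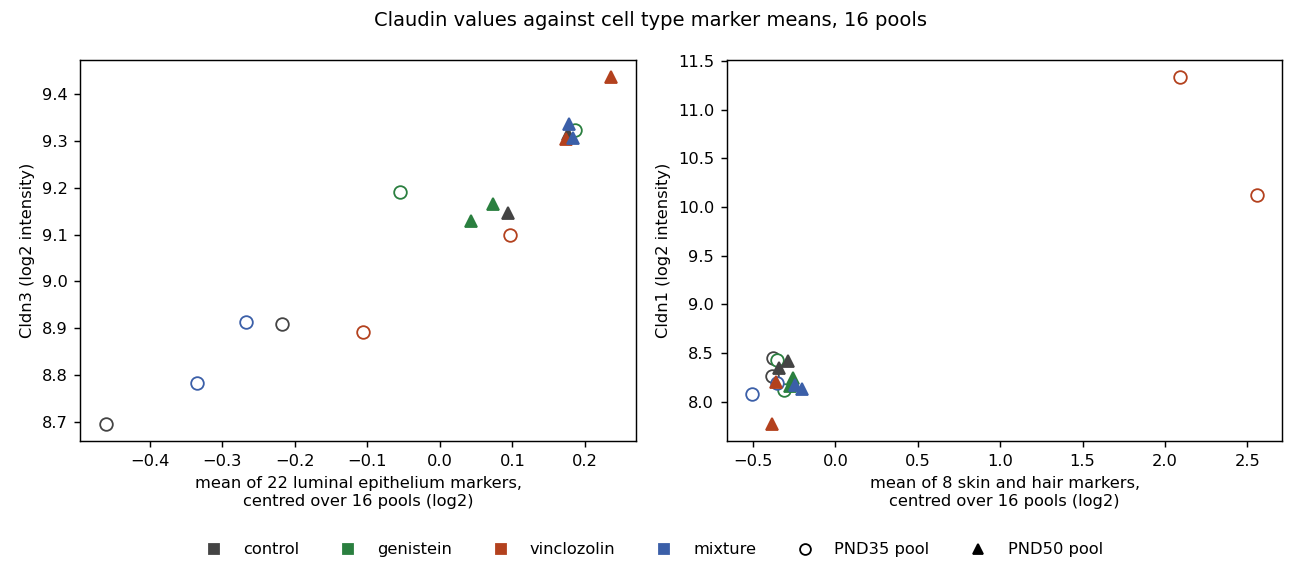
Left, Cldn3 (log2 intensity) against the mean of 22 luminal epithelium markers; right, Cldn1 against the mean of 8 skin and hair markers; both marker means are log2 values centred over the 16 pools, colours are treatments, open circles PND35 and filled triangles PND50. Cldn3 rises with the luminal mean over the whole range, whereas the 2 vinclozolin PND35 pools stand apart on both axes of the Cldn1 panel. Of the 8 skin and hair markers, Krt25, Krt27 and Dsg4 passed the filter only through those 2 pools, so their place on that axis is not read as a result.

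The second set of comparisons asked what each exposure did at PND35. Cldn1 with vinclozolin was the 1 claudin called, at 10.12 and 11.33 against 8.26 and 8.45 in controls. The genistein and mixture PND35 pools read 8.08 to 8.43. The difference was 2.38 on the log2 scale (5.20-fold, SE 0.28, limma adjusted p = 0.000826), where 0.966% of all genes were called higher. Larger absolute differences were found in 0.203% of genes. The 2 pools themselves lay 1.21 apart, and 0.839% of genes differed more between them. Without the first pool the difference was 2.98 and without the second 1.77, both with an adjusted p under the threshold. It did not pass when only the 4 pools compared were fitted (adjusted p = 0.240) or with the luminal mean as a covariate (2.06, adjusted p = 0.127).

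Cldn1 was not high with vinclozolin at PND50, nor in the mixture at either age. With vinclozolin at PND50 the pools read 7.77 and 8.20, so that the age change in this treatment was -2.74 (6.70-fold lower, SE 0.28, limma adjusted p = 0.00026, with 1.64% of genes called lower). The interaction with age was -2.77 against controls (SE 0.40, adjusted p = 0.00594, with 0.381% of genes called lower). The mixture at PND35 read 8.19 and 8.08, which was 2.59 below vinclozolin alone (6.03-fold lower, SE 0.28, adjusted p = 0.000378, with 1.45% of genes called lower). These 4 comparisons share the same 2 vinclozolin PND35 pools and are not independent of each other.

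The same 2 pools carried hair follicle and epidermal transcripts. Of 19 skin and hair markers, 11 have a named probe set and 8 passed the filter, but 3 of those (Krt25, Krt27 and Dsg4) passed only through these pools, so no count is drawn from the list. Of the 5 that pass without these pools, Krt73, an inner root sheath keratin of the hair follicle, read 11.10 and 10.41 against 6.38 to 6.74 elsewhere, and Sbsn, a gene of the upper epidermis, 8.71 and 8.85 against 7.16 to 7.59. Ivl, also among the 5, read 7.34 and 6.63 against 6.19 to 6.64 elsewhere. Krt25, another inner root sheath keratin but one of the 3 kept only through these pools, read 10.48 and 10.59 in them and 4.86 to 5.36 elsewhere. Cldn1 read 10.12 in the first pool and 11.33 in the second. Of the 5 markers that pass without these pools, Sbsn and Trex2 were also higher in the second pool, while Krt10, Ivl and Krt73 were lower there. Basal markers, of which several are also epidermal keratins, were 0.25 and 0.34 above their mean over all pools. The part of skin or hair follicle RNA in the Cldn1 value was not tested, and vinclozolin treatment and the presence of these transcripts cannot be told apart at PND35.

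The other claudins gave no call at PND35. Against controls, Cldn4 was 0.65 higher with vinclozolin (SE 0.17, limma adjusted p = 0.102) and 0.55 higher with genistein (SE 0.17, adjusted p = 0.318), and Cldn3 was 0.45 higher with genistein (SE 0.10, unadjusted p = 0.000696, adjusted p = 0.232). In these 3 comparisons both exposed pools lay above both control pools. Cldn7 and Cldn8 differed by 0.28 and 0.22 with genistein. Cldn8 was 0.45 higher with vinclozolin (SE 0.15, adjusted p = 0.196), and without the first vinclozolin pool, which left 1 pool in the group, the value was 0.77 (adjusted p = 0.000706), while without the second pool it was 0.14 (adjusted p = 0.812). The first pool read 8.34 and the second 8.97, so the call rested on 1 pool, which was assumed to vary like the other groups. No gene was called with genistein at PND35 (0%, with 1311 genes at an unadjusted p under 0.05) or with the mixture (0%, with 1799).

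The luminal marker mean differed between the same PND35 groups. Centred, it was -0.22 and -0.46 in control pools, 0.19 and -0.06 with genistein, -0.11 and 0.10 with vinclozolin and -0.27 and -0.33 in the mixture. All 22 luminal markers were on the positive side with genistein, with a median of 0.37 and none called. Relative to the luminal mean, the genistein difference of Cldn3 was 0.05 in place of 0.45, and that of Cldn4 0.14 in place of 0.55. For Cldn4 with vinclozolin it was 0.31 in place of 0.65, and for Cldn1 2.04 in place of 2.38. With 2 pools against 2 these relative values were not tested.

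At PND50 no claudin was called for any exposure. With genistein the differences from control ran from -0.18 to 0.01, and 0% of genes were called (307 at an unadjusted p under 0.05). With vinclozolin they ran from -0.40 for Cldn1 to 0.28 for Cldn8 (95% interval -0.06 to 0.61), and 0% of genes were called (713 at an unadjusted p under 0.05). In the mixture they ran from -0.23 for Cldn1 to 0.33 for Cldn7 (95% interval 0.0022 to 0.67, unadjusted p = 0.0487, limma adjusted p = 0.666), where 0.00848% of genes were called. Cldn4 in the mixture read 10.29 and 10.19 against 9.99 and 9.85 in controls, 0.32 higher without overlap and not called (adjusted p = 0.711).

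The mixture was also set against each compound alone. Doses are labelled alike, and whether the mixture holds 1 mg/kg/day of each compound or in all is not said. At PND35 it lay below genistein for Cldn3 (-0.41, SE 0.10, limma adjusted p = 0.264), Cldn4 (-0.40), Cldn7 (-0.35) and Cldn8 (-0.31), none called, where 0% of genes were (1417 at an unadjusted p under 0.05). Below vinclozolin it lay for Cldn8 (-0.54, SE 0.15, adjusted p = 0.0794) and Cldn4 (-0.50, SE 0.17, adjusted p = 0.131) as well as for Cldn1, with neither Cldn8 nor Cldn4 called. The Cldn8 value was -0.86 (adjusted p = 0.000308) without the first vinclozolin pool and -0.22 (adjusted p = 0.304) without the second. Each of these fits leaves 1 vinclozolin pool, which is assumed to vary like the other groups. At PND50 the differences from genistein ran from -0.05 to 0.34 and those from vinclozolin from -0.24 to 0.22, with no claudin called and 0.0254% and 0.0339% of all genes called.

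The other tight junction genes were counted beside the claudins. Of 33 listed, 27 were tested, and in the age average 12 were called higher and 1 lower, with a median of 0.09 (all genes: 19.4% higher, 25.2% lower, median -0.01). Cxadr, an adhesion receptor of epithelial junctions, rose by 0.50 (SE 0.09, limma adjusted p = 0.000968), and Ocln, which encodes occludin, by 0.36 (SE 0.05, adjusted p = 0.00027). The tricellular junction genes Ildr1 and Marveld2 rose by 0.28 and 0.22, the scaffold gene Magi3 by 0.24 and the polarity gene Crb3 by 0.22. Jam3, a junctional adhesion molecule also found on other cell types, fell by 0.19. Tjp1 and Tjp3, which encode zonula occludens proteins, gave -0.03 and 0.03 and were not called. Without both vinclozolin PND35 pools, over control, genistein and mixture, 8 were called higher and 2 lower, with a median of 0.07 (all genes: -0.005). The shares of all genes called in alternative fits are not given here. List counts from such fits, here and below, are therefore not set against a background.

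In the mixture 9 of these 27 genes rose with age and 1 fell, with a median of 0.16, where 14.4% of all genes rose and 18.3% fell. Cxadr rose by 1.06, Ocln by 0.74 and F11r, a junctional adhesion molecule, by 0.59, and Jam3 fell by 0.58. With vinclozolin at PND35, 1 of the 27, Marveld2, was 0.58 higher than in controls (SE 0.09, limma adjusted p = 0.00689), where 0.966% of all genes were called higher. These are the pools that carried the skin and hair transcripts.

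**Figure D4:**
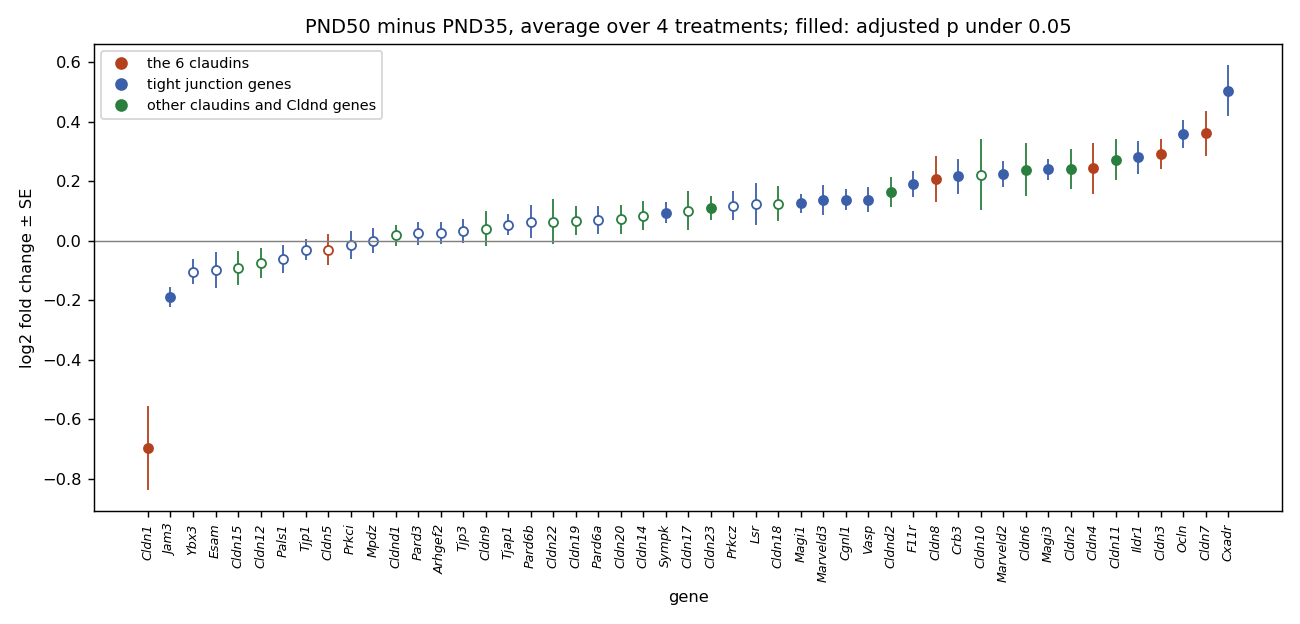
Change from PND35 to PND50, averaged over the 4 treatments, for the 6 claudins (red), the tested tight junction genes (blue) and the other claudin and claudin domain genes (green), in order of size; the y axis is log2 fold change, bars are the SE of the limma fit and filled points have an adjusted p under 0.05. Cldn1 (-0.70) and Jam3 (-0.19) are the filled points below 0, and Cxadr (0.50), Cldn7 (0.36) and Ocln (0.36) have the highest values.

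Of the other claudins, 18 were named on the array, and 14 of them passed the filter. With the claudin domain genes Cldnd1 and Cldnd2, 16 were tested, of which 5 rose with age on average and 0 fell (limma), with a median of 0.09, beside 19.4% and 25.2% of all genes. They were Cldn11 (0.27), Cldn2 (0.24), Cldn6 (0.24), Cldnd2 (0.16) and Cldn23 (0.11). Cldn11 is the claudin of myelin and of the Sertoli cell barrier, and Cldn2 forms cation pores in leaky epithelia. The count was 3 under quantile normalization and 3 under median centring, with medians of 0.05 and 0.08 (all genes: 0.004 and -0.02). Without both vinclozolin PND35 pools it was 4, namely Cldn2 (0.31), Cldn10 (0.31), Cldn11 (0.29) and Cldn20 (0.16). The median in that fit was 0.13, against -0.005 over all genes. There Cldn6 gave 0.12 (limma adjusted p = 0.310), Cldnd2 0.14 (adjusted p = 0.0938) and Cldn23 0.09 (adjusted p = 0.109), none of them called. Over all arrays Cldn2 and Cldn20 had means of 5.91 and 5.68, close to the filter value of 5.661. In the mixture 6 of the 16 rose, beside 14.4% of all genes, among them Cldn2 by 0.68 and Cldn11 by 0.52. Under quantile normalization 3 did, with a median of 0.16 against 0.006 over all genes.

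Of 15 adherens junction and desmosome genes tested, 3 rose and 4 fell in the age average, shares near those of all genes (19.4% and 25.2%). Their median was -0.03, or 0.01 under quantile normalization. Without both vinclozolin PND35 pools 4 rose and 3 fell, with a median of 0.03 against -0.005 over all genes. The desmosomal plakophilin Pkp2 rose by 0.42 and Cdh1, which encodes E-cadherin, by 0.25, while Ctnnb1, which encodes beta-catenin, fell by 0.32. Pkp1, the plakophilin of the epidermis, fell by 0.48 on average and by 0.16 (adjusted p = 0.0444) without those pools, its vinclozolin age change being -1.45. With vinclozolin at PND35, 4 of the 15 were higher than in controls (0.966% of all genes), Pkp1 by 1.69, the desmosomal Perp by 0.79, Nectin4 by 0.54 and Afdn by 0.32. Both Pkp1 and Perp are abundant in epidermis, and these are the pools with the skin and hair transcripts.

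Known regulators of claudin genes and of junction assembly were read in the same way. Of 23 tested, 7 rose and 2 fell with age on average, with a median of 0.07, beside 19.4% and 25.2% of all genes. Without both vinclozolin PND35 pools 6 rose and 2 fell, with a median of 0.10 against -0.005 over all genes. The membrane protease Prss8 rose by 0.43 and its inhibitors Spint1 and Spint2 by 0.41 and 0.24. The epithelial transcription factors Elf3 and Grhl2 rose by 0.34 and 0.24. Grhl3, a grainyhead factor of the epidermis, fell by 0.26, and gave -0.14 (adjusted p = 0.173) without those pools. Elf3 and Spint1 are also among the luminal markers. With vinclozolin at PND35, 0 of the 23 were called (limma), where 1.34% of all genes were called and 1716 genes had an unadjusted p under 0.05, so the count shows nothing about this list.

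The genes whose values ran most alike to each claudin over the 16 pools were sought among 11784 named genes by Pearson's r. For Cldn3 they were Elf5 (0.948), the actin crosslinker Actn1 (0.946) and Sema5a (0.945), all at 0.772 or higher within each age. For Cldn7 they were Prox1 (0.929), the mucin Muc15 (0.927) and Lcn2 (0.924). For Cldn8 they were Dtnb (0.934), the protocadherin Fat2 (0.916) and the integrin Itgb6 (0.914). For Cldn4 they were Appl2 (0.945), Fbxo32 (0.939) and Tmem184a (0.916). Cldn5 had no gene above 0.774, reached by Lsm8. The 3 genes chosen are the highest of many, and their r is a description.

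For Cldn1 the search returned Klk7 (0.973), Cst6 (0.964) and Klk10 (0.960). Klk7 encodes a kallikrein that cleaves corneodesmosomes in the outer epidermis, and Cst6 an inhibitor of epidermal proteases. Within PND50 alone r was -0.11 for Cst6, -0.08 for Klk10 and 0.904 for Klk7. Over all pools the values of all of these genes rested largely on the 2 vinclozolin PND35 pools. Klk7 read 8.67 and 11.64 in those pools and 6.31 to 6.79 elsewhere, and Cst6 read 8.39 and 9.18. Both genes, like Cldn1, were higher in the second pool. Klk10 read 6.82 and 8.80 in those pools and 5.32 to 5.77 elsewhere. It passed the filter at 5.661 only through those pools, so its likeness to Cldn1 is not read as a result. Without both vinclozolin PND35 pools, the 2 farthest from the Cldn1 median, r was 0.414 for Klk7, -0.30 for Cst6 and 0.07 for Klk10.

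Among the claudins themselves, Cldn3 and Cldn7 ran together at r = 0.791 over the 16 pools (0.615 within PND35 and 0.634 within PND50), Cldn4 and Cldn7 at 0.704 (0.614 and 0.640) and Cldn3 and Cldn8 at 0.675 (0.551 and 0.702). The neighbouring genes Cldn3 and Cldn4 gave 0.629 over all pools, 0.633 within PND35 and 0.198 within PND50. Cldn5 gave -0.30 to 0.10 with the other 5. Cldn1 and Cldn8 gave 0.791 within PND35 and -0.45 within PND50, the second vinclozolin PND35 pool being the highest of all 16 for both.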

How the data were processed

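The authors deposited 1 table of values for 27342 probe sets and 16 arrays. These deposited values run from 2.2 to 13.95, a range that fits log2 intensities, and they were used on that scale. Their log base, normalization, background correction and summarization are not stated by any source used here. The number of arrays, 2 pools a group, limits the precision. Probe sets were named through the platform's annotation, in which 15097 have 1 gene symbol, 323 several and 11922 none here. Of those with 1 symbol, 15067 matched RefSeq's gene table (GRCr8) and 30 kept the annotation's symbol. For 499 symbols with several probe sets the one with the highest mean was kept. Genes with a mean below 5.661, the 25th percentile over probe sets, were left out.

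Tests used limma 3.58.1 (lmFit and eBayes) in R 4.3.3 with 1 mean per group, 8 residual degrees of freedom, 18 comparisons, two-sided p-values with Benjamini-Hochberg adjustment over 11796 genes and a threshold of 0.05. The fit was run on simulated data of independent noise with added shifts. These data hold no shared change of cell content, so the run cannot show how the fit behaves under one. Relative age changes used exact permutation tests. Groups came from the sample titles. Members, lists and tests were chosen with earlier results of these data known. The genes named are the 6 claudins, at most 6 called genes of each list in order of absolute change, and the 3 genes most alike to each claudin by Pearson's r. Jam3 in the age average, Tjp1, Tjp3 and the marker genes given as levels were chosen after their values were seen. Alternatives were other filters, probe set rules, normalizations, thresholds, array weights, a robust fit with an intensity trend, a replicate block, covariates, smaller sets of pools and each pool left out. Python 3.11.15 and matplotlib 3.10.9 drew the figures.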

Additional observations from a re-analysis of the deposited data

Results flagged for a closer look

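The age change of Cldn1 differed between vinclozolin and control, by -2.77 on the log2 scale in a test of the interaction (SE 0.40, limma adjusted p = 0.00594). Cldn1 read 10.12 and 11.33 in the vinclozolin PND35 pools and 7.77 and 8.20 at PND50, against 8.26 and 8.45, then 8.35 and 8.41, in controls. Without the first vinclozolin PND35 pool the value was -3.38 and without the second -2.17. In the same 2 pools the skin and hair markers Krt73 and Sbsn read 11.10 and 10.41, and 8.71 and 8.85. In the other 14 they read 6.38 to 6.74 and 7.16 to 7.59. The epidermal marker Ivl read 7.34 and 6.63 in the vinclozolin PND35 pools, against 6.19 to 6.64 in the other 14. The part of skin and hair transcripts in the difference was not tested.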

How the results depend on the processing

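Over 31 alternatives, the 13 estimates called for a claudin gave 399 values, of which 322 kept direction and call, 76 kept direction and lost the call and 1 turned sign, Cldn8 in the age average with the luminal mean as covariate (-0.0435). Of 16 estimates not called with an unadjusted p under 0.05, 10 of 490 values passed and 1 turned sign, Cldn3 with age in controls under the same covariate (-0.000302). The cause of these changes was not tested.

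The number of claudins called moved as follows. In the age average it was 3 at a threshold of 0.01, 0 with the luminal or the muscle covariate, and 3 to 5 with 1 pool left out. In the mixture with age it was 2 at 0.01, 0 with either covariate and 1 to 4 with 1 pool left out. With the luminal and the muscle covariate the Cldn4 change was 0.26 and 0.32 in the age average and 0.67 and 0.83 in the mixture, none called. In vinclozolin with age it was 2 under quantile normalization and at a threshold of 0.1, 0 with only the groups compared and 1 to 2 with 1 pool left out. In controls with age it was 1 with array weights, at 0.1 and without both vinclozolin PND35 pools, and 0 to 1 with 1 pool left out. For vinclozolin against control at PND35 it was 0 with only the groups compared or the luminal covariate and 1 to 2 with 1 pool left out. For mixture against vinclozolin at PND35 it was 2 at 0.1, 0 with only the groups compared and 1 to 2 with 1 pool left out. For the age change with vinclozolin against that of control it was 0 with only the groups compared or either covariate. The fits with only the groups compared hold few pools and so few residual degrees of freedom. The luminal and muscle means differed with age themselves, so a loss of calls in the covariate fits is not read as a result about the claudins.

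The relative age change turned sign for Cldn3 (-0.0234) and Cldn5 (0.0373) with the median of the markers. With 3 markers it was -0.75 for Cldn1, 0.24 for Cldn3, 0.19 for Cldn4, 0.31 for Cldn7 and 0.15 for Cldn8, and -0.19 for Cldn5 against Cdh5, the 1 of its 3 markers tested. Without the vinclozolin pools it was -0.33 for Cldn1, -0.0529 for Cldn3, 0.0215 for Cldn4 and 0.00747 for Cldn5. With 1 pool left out it ran from -1.11 to -0.86 for Cldn1, from -0.0118 to 0.0153 for Cldn3 and from -0.12 to 0.0235 for Cldn4.

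Replicate numbers were not taken to pair the pools. Over 28 pairs of groups the deviations correlated at -0.37 to 0.30, with a median of 0.04, and 8 exceeded 0.1. Whether some groups share a factor by replicate number was not tested. With a replicate block 4 claudins were called in the age average and 3 in the mixture, Cldn8 being lost in both (adjusted p = 0.0511 and 0.0512).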
